A study of Mus musculus with 6 samples.

Results

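The genes described here encode the mouse receptors for the constant part of IgG, Fcgr1, Fcgr2b, Fcgr3 and Fcgr4, with Fcer1g, the chain through which the activating receptors signal, and Syk, the kinase that the chain recruits. They were taken by symbol and make up 6 of the 47728 genes in the deposited count table. RNA was sequenced from the cerebral cortex of 3 FAD5x samples and 3 Control samples. FAD5x mice carry human amyloid precursor protein and presenilin transgenes with mutations of familial Alzheimer's disease, which a Thy1 promoter cassette expresses mainly in neurons, so that amyloid plaques form. Control samples came from C57BL/6 mice, which carry no transgene. The sources used here give neither the background strain of the FAD5x mice, nor the age and sex of either group, nor whether each library came from an animal of its own. The p-values therefore cover the spread between these libraries alone, and that spread may be technical. The library names of FAD5x replicates 1 and 2 share a number, and whether both came from the same mouse is not stated. Values of single libraries are given in the order of replicates 1, 2 and 3 within each group.

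Fc gamma receptors bind the Fc part of IgG once antibody has coated a target. Clustered activating receptors are phosphorylated by Src family kinases on the tyrosine motif (ITAM) of their associated chain, Syk docks there, and phagocytosis, an oxidative burst and cytokine release follow. Fcgr2b carries an inhibitory motif (ITIM) in its own tail and restrains this signal, so the balance of activating and inhibitory receptors sets the response to immune complexes. In the brain these receptors are found mainly on microglia and on the macrophages along its borders.

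The starts of these genes are shown because the 3 activating receptors share a short stretch there that the inhibitory receptor and the shared chain lack. Each line holds the 100 bases before a RefSeq start, read 5′ to 3′ on the strand of the gene in GRCm38.p6, an earlier build than the one used for counting. Capitals mark the purine-rich hexamer GAGGAA or its reverse complement TTCCTC, a form found in sites bound by the myeloid factor PU.1. The shorter GGAA within it also occurs in the windows of Fcgr2b and Fcer1g, where it is not marked.
Fcgr1, chr3:96293970-96294069, minus strand: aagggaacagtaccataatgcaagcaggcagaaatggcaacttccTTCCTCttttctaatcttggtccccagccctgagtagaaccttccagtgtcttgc
Fcgr3, chr1:171059404-171059503, minus strand: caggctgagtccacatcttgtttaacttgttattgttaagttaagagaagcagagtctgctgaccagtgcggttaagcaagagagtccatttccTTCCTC
Fcgr4, chr1:171018826-171018925, plus strand: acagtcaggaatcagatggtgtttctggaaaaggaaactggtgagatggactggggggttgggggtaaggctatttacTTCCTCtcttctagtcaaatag
Fcgr2b, chr1:170976072-170976171, minus strand: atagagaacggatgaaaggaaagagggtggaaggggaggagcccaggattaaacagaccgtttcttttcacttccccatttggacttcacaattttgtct
Fcer1g, chr1:171234350-171234449, minus strand: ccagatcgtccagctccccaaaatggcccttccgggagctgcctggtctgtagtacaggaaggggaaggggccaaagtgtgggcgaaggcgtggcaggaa
Syk, chr13:52596782-52596881, plus strand: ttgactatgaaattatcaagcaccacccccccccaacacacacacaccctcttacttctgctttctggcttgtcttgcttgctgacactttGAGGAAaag

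The hexamer began 55 bases before the start of Fcgr1, 6 before that of Fcgr3 and 22 before that of Fcgr4. Syk, which was not called, had it 9 bases before the downstream of its RefSeq starts and not in the 100 bases before the other. On both strands together, 3227 of 32851 RefSeq windows (9.8%) held it within 100 bases before the start. The longest run shared by the windows of 2 of these genes was TTCCTTCCTCTTTT, 14 bases, in Fcgr1 and at the second RefSeq start of Fcgr3, and it occurred in 2 of the 32851 windows. The hexamer and the window length were chosen after the sequences were seen, and a match is a description of letters, not a binding site.

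Total counts were 17972967 to 24137936 per FAD5x library and 17363946 to 18188112 per Control library, and 17074 genes passed the filter on low counts. Markers of cortical neurons were detected in every library, at a sum of 3219 to 6119 CPM in FAD5x and 2751 to 3936 CPM in Control, where CPM are counts per 1000000 of the library's total after scaling. The values of 2 libraries stood apart. FAD5x replicate 2 had the lowest summed microglia markers of its group, 384 CPM, against 588 and 823 CPM in the other FAD5x libraries and 349 to 529 CPM in Control. It also had the highest cortical neuron markers, 6119 CPM, against 3219 and 3441 CPM in the other FAD5x libraries, and 129 CPM of the astrocyte gene Gfap, against 1508 and 914 CPM in those. Y-linked genes took 3124 counts in Control replicate 1 and at most 9 elsewhere. Xist took 3 counts in Control replicate 1 and at least 10346 in each of the other 5 libraries. By these counts Control replicate 1 was male and the other 5 libraries, with all of FAD5x, were female, so sex was not balanced between the groups. The part of that difference in the results was not tested, and values without single libraries are given beside the calls.

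Of the 5 genes of the set that passed the filter, Fcgr2b and Fcgr3 rose in FAD5x cortex by edgeR's quasi-likelihood test with Benjamini-Hochberg adjustment over all 17074 genes. None fell, with 0 lower at an unadjusted p below 0.05 and 0 called lower by limma-voom or DESeq2. By the same rule 1.76% of all tested genes were called higher in FAD5x and 1.39% lower. Fcer1g and Fcgr1 had unadjusted p-values below 0.05 with higher FAD5x levels but were not called, and Syk was not called. Over all tested genes 11.2% were higher in FAD5x and 10.1% lower at an unadjusted p below 0.05. DESeq2 called 3 of the 5 genes, against 8.7% of all genes in either direction, and limma-voom called 1, against 2.57%. In 4 of the 5 genes every FAD5x library lay above every Control library, as did 14.1% of all tested genes. The median log2 fold change of the 5 genes was 1.14, against 0.02 over all tested genes. Markers of microglia had a median of 0.66 over 13 genes, 7 of them higher and 1 lower at an unadjusted p below 0.05. The lower one was Fcrls, an Fc receptor-like gene, with 16.7, 13.6 and 9.40 CPM in FAD5x, against 19.7, 37.0 and 22.0 CPM in Control (log2 fold change -0.98, edgeR adjusted p = 0.111). Markers that microglia raise around plaques had a median of 1.28 over 11 tested genes, 8 of them higher at that p. EdgeR and limma-voom called 0 of either list, and DESeq2 called 4 microglia markers and 6 plaque-responsive ones. Their part in the receptor levels was not tested. Fcgr4 was too low to be tested and is described by its counts. In bulk tissue a change in the number of cells of a type and a change in RNA per cell cannot be told apart.

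**Figure D1:**
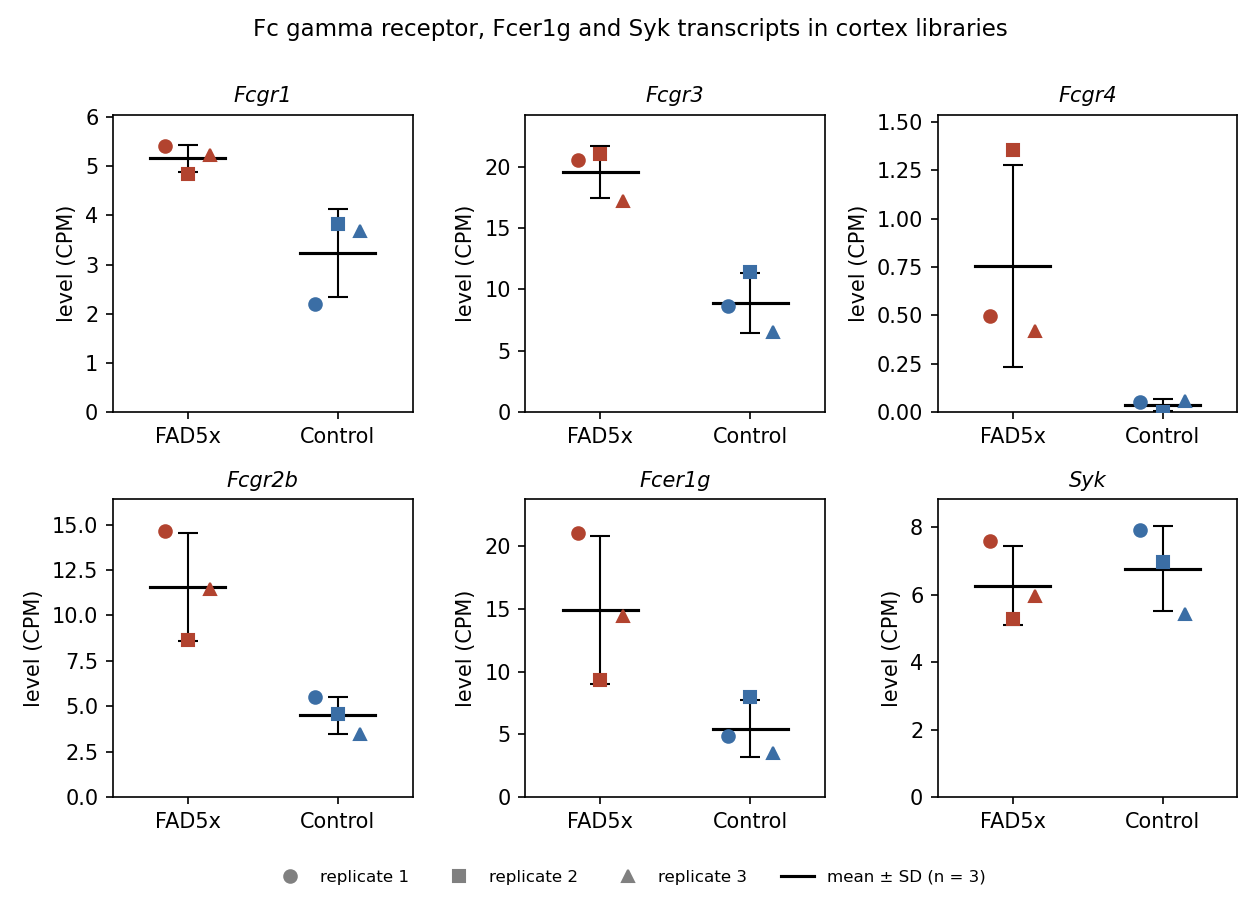
Level of each gene in every library, in CPM, with FAD5x libraries on the left and Control libraries on the right of each panel; points are libraries and bars show the group mean ± SD (n = 3). The groups do not overlap for Fcgr1, Fcgr2b, Fcgr3, Fcgr4 and Fcer1g, and they do for Syk.

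Among the activating receptors, Fcgr3 (ENSMUSG00000059498, chromosome 1) encodes the low-affinity receptor for immune complexes. It had 20.5, 21.1 and 17.2 CPM in the FAD5x libraries, against 8.64, 11.5 and 6.54 CPM in the Control libraries. Every FAD5x library was above every Control library, and the lowest FAD5x value lay well clear of the highest Control value. The means were 19.6 ± 2.10 CPM in FAD5x and 8.88 ± 2.47 CPM in Control (SD, n = 3), a 2.21-fold rise (log2 1.14 ± 0.22 SE, edgeR adjusted p = 0.0316). These levels rested on 329 to 498 reads per FAD5x library and 117 to 204 per Control library. Leaving out single libraries kept the log2 fold change between 0.97 and 1.37. The call held without FAD5x replicate 2 (adjusted p = 0.0317) or replicate 3 (0.0371) and ended without FAD5x replicate 1 (0.0853) or Control replicate 1 (0.134), 2 (0.0611) or 3 (0.0855).

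Fcgr1 (ENSMUSG00000015947, chromosome 3) encodes the high-affinity receptor, which can hold monomeric IgG. Its level was 5.40, 4.85 and 5.22 CPM in the FAD5x libraries, against 2.20, 3.82 and 3.69 CPM in the Control libraries. The FAD5x libraries lay close together, and Control replicate 1, the library with Y-linked counts, was the lowest of all. The means were 5.16 ± 0.284 CPM in FAD5x and 3.24 ± 0.899 CPM in Control (SD, n = 3). The 1.59-fold difference (log2 0.67 ± 0.28 SE) had an unadjusted p of 0.0394 and an edgeR adjusted p of 0.213. Without Control replicate 1 the log2 fold change was 0.46, the lowest value when single libraries were left out.

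Fcgr4 (ENSMUSG00000059089, chromosome 1) encodes a receptor that binds IgG2a and IgG2b and is known from mouse monocytes, macrophages and neutrophils. It had 12, 28 and 8 reads in the FAD5x libraries, against 1, 0 and 1 in the Control libraries. Every FAD5x library was above every Control library, and FAD5x replicate 2 held more than the other FAD5x libraries together. In CPM these were 0.495, 1.36 and 0.418 in FAD5x, against 0.0551, 0 and 0.0559 in Control, where a count of 0 allows up to 0.169 CPM in Control replicate 2. The sums of 48 reads in FAD5x and 2 in Control, set against the library sizes, gave a ratio of 20.2 with an exact 95% interval of 5.29 to 171 that covers counting error only and does not cover the spread between libraries. That ratio was added after the counts were seen, and it was 12.4 to 27.0 without single libraries. In the edgeR fit with no filter on low counts Fcgr4 was called (adjusted p = 0.0135).

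Fcgr2b (ENSMUSG00000026656, chromosome 1) is the single inhibitory receptor of the family in the mouse. Its level was 14.6, 8.67 and 11.4 CPM in the FAD5x libraries, against 5.51, 4.55 and 3.47 CPM in the Control libraries. No FAD5x library overlapped Control, and within FAD5x replicate 2 was the lowest. The means were 11.6 ± 2.98 CPM in FAD5x and 4.51 ± 1.02 CPM in Control (SD, n = 3), a 2.57-fold rise (log2 1.36 ± 0.26 SE, edgeR adjusted p = 0.0333). The call was also at the edge of the threshold with other settings, with an adjusted p of 0.0507 in limma-voom and 0.0551 when scaling used library totals alone. It held without FAD5x replicate 2 (0.0107) and ended without FAD5x replicate 1 (0.0912) or 3 (0.0532) and without Control replicate 1 (0.0877), 2 (0.127) or 3 (0.108), while the log2 fold change stayed between 1.16 and 1.54. The coding transcripts of Fcgr2b and Fcgr3 are 96.3% identical over 512 bases, which is 14.4% of the longest Fcgr2b transcript, and 96.5% over 509 bases, 37.8% of that of Fcgr3. No source used here says how reads matching both were counted, so the counts of these 2 genes are uncertain to that extent. No other pair among the 6 genes had a match of at least 90% identity over 100 bases. In addition 155 of the 5790 exon bases of Fcgr2b overlap the antisense gene Gm38204, and the strand setting of the counting is not given.

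Fcer1g (ENSMUSG00000058715, chromosome 1) encodes the Fc receptor gamma chain, the ITAM adaptor that Fcgr1, Fcgr3 and Fcgr4 need for surface expression and signalling in the mouse. It had 21.1, 9.30 and 14.4 CPM in the FAD5x libraries, against 4.84, 7.98 and 3.52 CPM in the Control libraries. The groups did not overlap, but FAD5x replicate 2 came near Control replicate 2, the highest Control value. The means were 14.9 ± 5.92 CPM in FAD5x and 5.45 ± 2.29 CPM in Control (SD, n = 3), a 2.74-fold difference that was not called (log2 1.46 ± 0.38 SE, edgeR adjusted p = 0.0828). Without FAD5x replicate 2 the log2 fold change was 1.71 and the gene was called (adjusted p = 0.0245), and DESeq2 called it with all libraries (adjusted p = 0.00336). It was also called when FAD5x replicates 1 and 2 were summed as 1 sample (0.0434), an alternative added after the data were seen. Over the other single libraries left out the adjusted p reached 0.267.

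Syk (ENSMUSG00000021457, chromosome 13) encodes the tyrosine kinase that binds the phosphorylated ITAM. It had 7.58, 5.28 and 5.96 CPM in the FAD5x libraries, against 7.93, 6.97 and 5.42 CPM in the Control libraries. The libraries of the groups were interleaved, with means of 6.27 ± 1.18 CPM in FAD5x and 6.77 ± 1.26 CPM in Control (SD, n = 3). The log2 fold change was -0.11 ± 0.24 (SE, edgeR adjusted p = 0.836), and it lay between -0.27 and 0.02 when single libraries were left out.

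Per kilobase of annotated exon, the order of levels in FAD5x cortex was Fcer1g (17.1 CPM per kb), Fcgr3 (11.3), Fcgr2b (2.0), Fcgr1 (1.99), Syk (0.670) and Fcgr4 (0.602). In Control cortex it was Fcer1g (6.23), Fcgr3 (5.12), Fcgr1 (1.25), Fcgr2b (0.778), Syk (0.723) and Fcgr4 (0.0294). Fcgr3 was thus the most abundant receptor transcript, above every other receptor in each of the 6 libraries. In FAD5x, Fcgr1 had 2.09, 1.87 and 2.02 CPM per kb in replicates 1, 2 and 3, within the range of Fcgr2b at 2.53, 1.5 and 1.98, so these neighbours did not differ beyond their spread. The values of Fcer1g and Fcgr3 also overlapped in both groups, as did those of Syk and Fcgr4 in FAD5x. In Control the values of Fcgr2b overlapped those of Fcgr1 and those of Syk. Exon lengths came from an earlier build and count every annotated exon, so an isoform with fewer exons is understated.

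Ratios within a library need no scaling between libraries. The 3 activating receptors together, per kilobase, were 5.66, 10.1 and 6.2 times Fcgr2b in the FAD5x libraries, against 6.18, 10.3 and 8.75 times in the Control libraries. The groups overlapped and the log2 difference of -0.22 was not beyond the spread (exact permutation test, two-sided, p = 0.6, where 3 against 3 cannot go below 0.1). Relative to Fcer1g the activating receptors stood at 0.592, 1.42 and 0.743 in FAD5x, against 1.06, 0.885 and 1.30 in Control, again overlapping (log2 difference -0.32, exact permutation p = 0.5).

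Relative to Syk the groups separated. The activating receptors were 17.7, 26.8 and 19.3 times Syk in the FAD5x libraries, against 6.94, 10.9 and 9.04 times in the Control libraries, a log2 difference of 1.25. Every FAD5x library exceeded every Control library, which gives the smallest p that this design allows (exact permutation p = 0.1), and the comparison was added after the values of Syk were seen. The log2 difference stayed between 1.07 and 1.40 without single libraries.

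**Figure D2:**
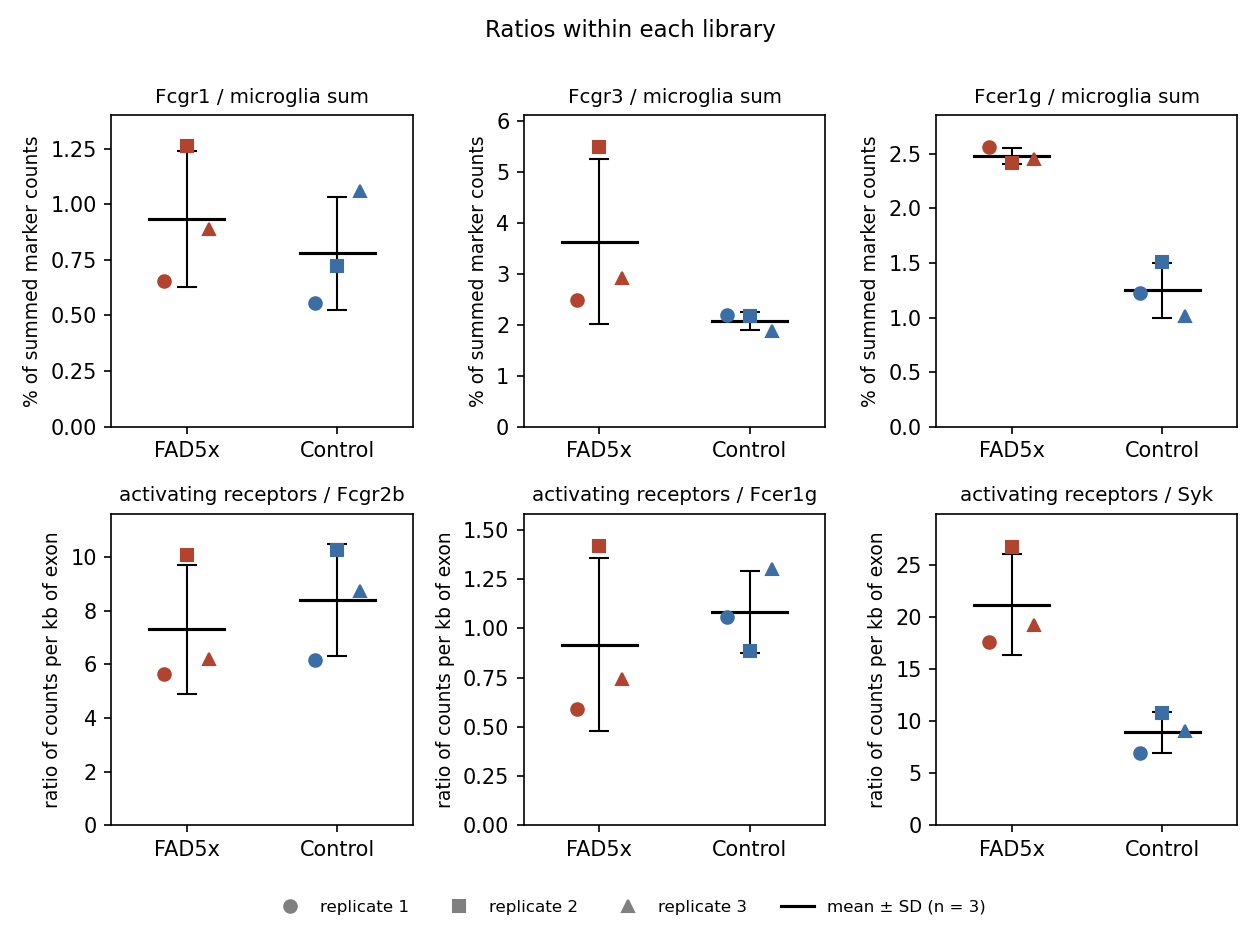
Ratios within each library, with FAD5x on the left and Control on the right of each panel and bars for the group mean ± SD (n = 3): Fcgr1, Fcgr3 and Fcer1g as a percentage of the summed microglia markers (upper row), and activating receptors to Fcgr2b, Fcer1g and Syk per kilobase of exon (lower row). The ratio to Syk separates the groups, at 17.7 to 26.8 in FAD5x and 6.94 to 10.9 in Control, whereas the ratios to Fcgr2b and Fcer1g overlap.

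The receptors were next set against 13 markers of microglia, the resident macrophages of the brain, all of which were tested. Fcgr3 amounted to 2.49%, 5.48% and 2.92% of the summed marker level in the FAD5x libraries, against 2.18%, 2.17% and 1.88% in the Control libraries. The log2 difference of 0.72 was 0.38 without FAD5x replicate 2 and at most 0.95 without another library. Fcgr2b stood at 1.78%, 2.26% and 1.94% in FAD5x, against 1.39%, 0.860% and 0.994% in Control (log2 difference 0.90). Fcer1g stood at 2.56%, 2.42% and 2.45% in FAD5x, against 1.22%, 1.51% and 1.01% in Control (log2 difference 1.01). In all 3 the groups did not overlap, with the smallest p that 3 against 3 allows (exact permutation p = 0.1 each). The marker sum includes Sall1, with 43.1, 19.9 and 81.9 CPM in FAD5x, against 99.5, 69.1 and 41.0 CPM in Control. In Control replicate 1 the whole sum was 396 CPM. The separation for Fcgr3 depends on Sall1 being in the sum. The shares of Fcer1g were nearly equal in the FAD5x libraries although its CPM were not. Fcgr1, at 0.656%, 1.26% and 0.888% in FAD5x, against 0.557%, 0.722% and 1.06% in Control, overlapped (log2 difference 0.26, exact permutation p = 0.6). Syk was at 0.922%, 1.37% and 1.01% in FAD5x, against 2.0%, 1.32% and 1.56% in Control, also overlapping (log2 difference -0.56, exact permutation p = 0.2).

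FAD5x replicate 2 was compared with the other libraries of its group gene by gene. Of the 13 microglia markers 12 were lower in it than the mean of FAD5x replicates 1 and 3, with a median ratio of 0.631. Of 13 markers that microglia raise around plaques, such as Trem2, Tyrobp and Clec7a, all were lower, with a median ratio of 0.209. The same ratio was 1.12 for Fcgr3, 0.912 for Fcgr1, 2.97 for Fcgr4, 0.665 for Fcgr2b and 0.524 for Fcer1g. In the library with the lowest summed microglia markers of its group, the activating receptors were thus near the level of the other FAD5x libraries or above it. Single microglia markers ranged from 0.214 to 1.04, with Itgam at 0.868, Aif1 at 0.892 and Fcrls at 1.04. Ratios like that of Fcgr1 thus also occurred among these markers. Fcgr2b and Fcer1g lay near the median of the microglia markers and above that of the plaque-responsive ones. A single library gives no test of this.

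Markers of other cells that carry Fc gamma receptors also varied. Summed over 9 genes, neutrophil markers reached 0.495, 12.9 and 6.90 CPM in the FAD5x libraries, against 1.21, 1.74 and 0.503 CPM in the Control libraries, and 3 of the 9 were tested. Of genes singled out after their values were seen, S100a8, a neutrophil calcium-binding protein gene, had 6, 90 and 34 reads in FAD5x, against 10, 4 and 1 in Control, and Cxcr2, a neutrophil chemokine receptor gene, had 0, 18 and 4 reads in FAD5x, against none in Control. Of the 9 markers 5 were highest in FAD5x replicate 2, as was Fcgr4, and the other 4 in FAD5x replicate 3. The part of neutrophils in the Fcgr4 counts was not tested. Ly6g and Elane had fewer than 10 reads over all libraries, with 5 for Ly6g, all in FAD5x replicate 2, and 1 for Elane, in FAD5x replicate 3. Markers of perivascular macrophages and monocytes summed to 5.18 to 11.9 CPM in FAD5x and 8.27 to 18.2 CPM in Control, with 5 of 10 tested. Of these 5, 0 were called, and 2 were lower and 0 higher at an unadjusted p below 0.05, against 10.1% and 11.2% of all tested genes. Lyve1 had 0.206, 0.436 and 0.679 CPM in FAD5x, against 1.93, 1.74 and 1.40 CPM in Control. Mrc1 had 2.14, 1.26 and 1.83 CPM in FAD5x, against 6.72, 7.19 and 1.96 CPM in Control. Cd163 gave 6.72 CPM of the sum in FAD5x replicate 1. Markers of natural killer and T cells summed to 1.93 to 16.2 CPM in FAD5x and 0.950 to 1.38 CPM in Control, with Ncr1 and Gzma at 0. FAD5x replicate 1 alone set that upper end, with 13.5 CPM from Cd4, and the other FAD5x libraries were at 2.18 and 1.93 CPM. Those of B and plasma cells summed to 1.40 to 19.7 CPM in FAD5x and 1.51 to 2.15 CPM in Control, with none tested. Those of mast cells and basophils, in which Fcer1g is also expressed, summed to 29.5 to 37.5 CPM in FAD5x and 49.0 to 53.6 CPM in Control. These sums came mostly from Kit, which had 37.3, 28.8 and 32.6 CPM in FAD5x, against 53.0, 49.0 and 48.5 CPM in Control. Kit was called lower (edgeR adjusted p = 0.0483), as were 1.39% of all tested genes. Mcpt8 was at 0, and Cpa3, Tpsab1 and Cma1 had under 10 reads, so the sums say little about mast cells.

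**Figure D3:**
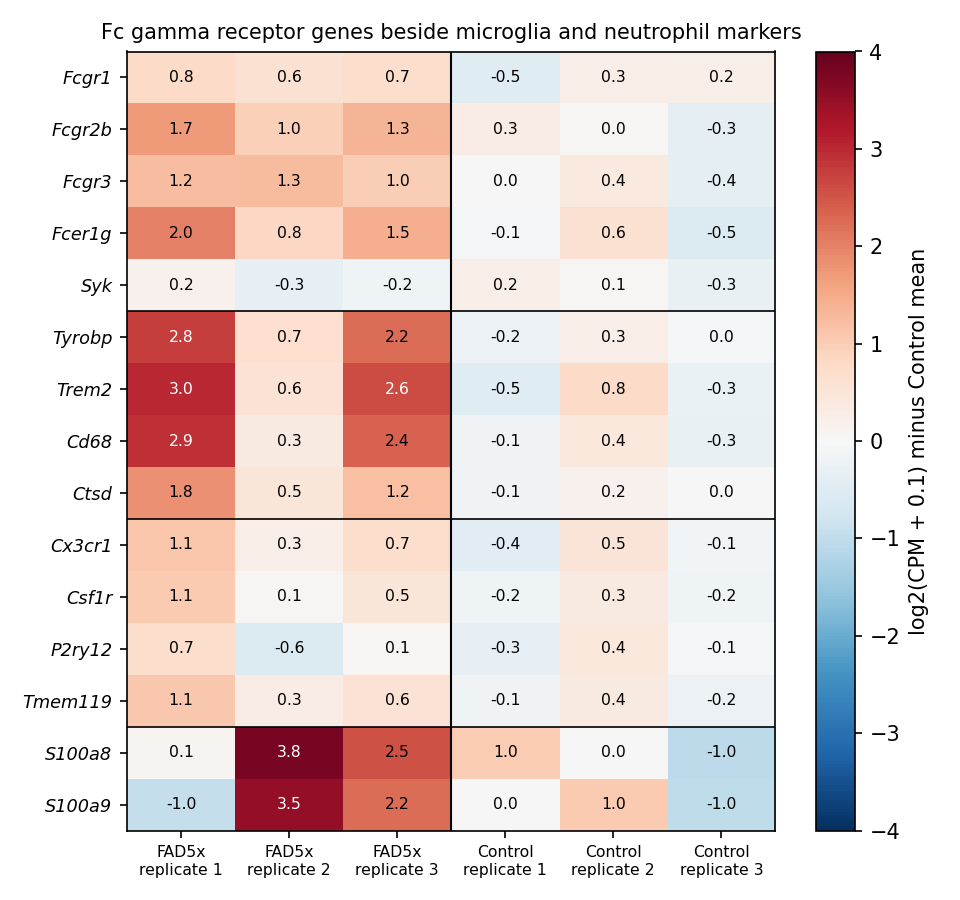
Log2 level of each gene in each library relative to the Control mean, with the FAD5x libraries in the left columns and the Control libraries in the right ones; colour and printed values give the difference. The genes below the Fc receptor genes were chosen after their values were seen. In FAD5x replicate 2 Trem2, Tyrobp and Cd68 lie near Control, at 0.59, 0.68 and 0.35, while Fcgr3 stands at 1.27.

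Over the 6 libraries, Pearson's r between log2 levels was 0.93 for Fcgr2b with Fcer1g, 0.90 for Fcgr3 with Fcer1g and 0.89 for Fcgr2b with Fcgr3. Fcgr1 had r of 0.66 to 0.76 with these genes, and Syk had -0.42 to 0.21 with the other tested ones. These are descriptions over 6 libraries that share the difference between the groups. The 8 genes whose levels most resembled the mean of the 5 tested genes, of 13645 compared, were Lipa, Kif1c, Olfml1, Agpat2, Clec5a, Irf5, Aldh9a1 and Pros1, with r of 0.98 to 0.99 over the same libraries. Lipa encodes lysosomal acid lipase, Irf5 a transcription factor of myeloid cells, Clec5a a myeloid lectin-like receptor and Pros1 protein S, which links dying cells to phagocytic receptors. None of the 8 was called. Lipa, the first of them, had 22.2, 18.5 and 19.4 CPM in the FAD5x libraries, against 16.5, 16.9 and 15.1 CPM in the Control libraries. The groups did not overlap, as in 14.1% of all tested genes. Selection by likeness to genes that mostly separate the groups favours such a pattern.

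The ligands of these receptors are immunoglobulins, and transcripts of immunoglobulin chains do not measure antibody itself. Of 13 constant chain genes 2 passed the filter, Ighm and Ighg2c, and edgeR called neither. At an unadjusted p below 0.05, 1 was higher in FAD5x, as were 11.2% of all tested genes. Limma-voom called 0 and DESeq2 1 (8.7% of all genes). Ighg2c, the IgG2c heavy chain, had 4.53, 6.83 and 12.9 CPM in the FAD5x libraries, against 2.64, 2.53 and 2.80 CPM in the Control libraries (log2 fold change 1.60 ± 0.38 SE, edgeR adjusted p = 0.0613). All FAD5x libraries were above Control. Ighm, the IgM heavy chain, overlapped, with 28.5, 19.4 and 14.3 CPM in FAD5x, against 5.84, 10.4 and 20.2 CPM in Control (log2 fold change 0.77 ± 0.44 SE, edgeR adjusted p = 0.366). Among the untested chains, singled out after their values were seen, Igkc had 4, 65 and 312 reads in FAD5x, against 4, 4 and 3 in Control, and Ighg1 had 0, 60 and 1 reads in FAD5x, against none in Control. Igkc reads were thus more numerous than in Control in FAD5x replicates 2 and 3 alone, and nearly all Ighg1 reads came from replicate 2. In the Control libraries the tested heavy chains had more reads than the light chain Igkc, with 48, 45 and 50 for Ighg2c and 106, 185 and 361 for Ighm. In FAD5x replicate 1 Ighm had 692 reads and Igkc 4. The source of the Ighm and Ighg2c reads was not tested.

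Of 13 other Fc receptor genes 4 were tested, and edgeR, limma-voom and DESeq2 each called 0, with 0 at an unadjusted p below 0.05. Their median log2 fold change was 0.03. The Fc receptor-like gene Fcrls is not among them, since it was listed with the microglia markers. Fcgrt, which encodes the neonatal receptor that recycles IgG in endothelium, had 15.3, 8.72 and 15.3 CPM in FAD5x, against 20.3, 22.4 and 13.2 CPM in Control (log2 fold change -0.51 ± 0.27 SE, edgeR adjusted p = 0.326). Trim21, the cytosolic antibody receptor, had 1.98, 2.33 and 3.71 CPM in FAD5x, against 2.42, 2.87 and 1.29 CPM in Control (0.28 ± 0.40 SE, adjusted p = 0.730). Both overlapped between groups.

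Among 21 other ITAM adaptors and Syk-coupled receptors 6 were tested. EdgeR and limma-voom called 0 of them, with 3 above Control at an unadjusted p below 0.05 (11.2% of all genes), and DESeq2 called 2 (8.7% of all genes). Their median log2 fold change was 0.90. Trem2, a lipid receptor of microglia, had 74.3, 13.7 and 56.3 CPM in the FAD5x libraries, against 6.39, 15.3 and 7.55 CPM in the Control libraries (log2 fold change 2.30 ± 0.66 SE, edgeR adjusted p = 0.125). Tyrobp, its ITAM adaptor, had 40.1, 9.45 and 28.1 CPM in FAD5x, against 5.01, 7.02 and 5.70 CPM in Control (2.13 ± 0.48 SE, adjusted p = 0.0609). FAD5x replicate 2 lay within the Control range for Trem2 and near it for Tyrobp. Without that library this list had 4 calls, when 989 of 17701 tested genes were called, against 537 of 17074 with all libraries.

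The Src family kinases, which phosphorylate the ITAM before Syk binds, were listed with their regulators, and the list had a median below 0. Of 9 tested of 11, edgeR and limma-voom called 0, with 1 higher and 2 lower at an unadjusted p below 0.05 (11.2% and 10.1% of all genes), and DESeq2 called 2 (8.7% of all genes). The higher gene was Ptprc, a regulator and not a kinase (log2 fold change 1.64), and the lower ones were the kinases Lyn (-0.64) and Fyn. The median log2 fold change of the list was -0.41. Fyn had 106, 93.9 and 129 CPM in FAD5x, against 187, 171 and 153 CPM in Control, with no overlap (log2 fold change -0.63 ± 0.16 SE, edgeR adjusted p = 0.0682). Src had 107, 147 and 106 CPM in FAD5x, against 131, 119 and 111 CPM in Control, overlapping (-0.00 ± 0.16 SE, adjusted p = 0.997). Both kinases are also expressed by neurons.

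All 25 genes of signalling downstream of Syk were tested, and edgeR and limma-voom called 0, with 5 higher and 1 lower at an unadjusted p below 0.05 (11.2% and 10.1% of all genes), while DESeq2 called 3 (8.7% of all genes). Their median log2 fold change was 0.20. Grb2, an adaptor, had 134, 188 and 207 CPM in FAD5x, against 205, 151 and 144 CPM in Control (log2 fold change 0.08 ± 0.20 SE, edgeR adjusted p = 0.859). Cbl, a ubiquitin ligase that turns off the kinases, had 95.6, 60.7 and 73.5 CPM in FAD5x, against 94.3, 79.3 and 88.5 CPM in Control (-0.19 ± 0.17 SE, adjusted p = 0.581). Both overlapped between groups.

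All 17 genes of the actin machinery and the NADPH oxidase, which carry out engulfment and the oxidative burst, were tested. Of these 16 had a log2 fold change above 0, as did 8801 of the 17074 tested genes, 7 were higher at an unadjusted p below 0.05, as were 11.2% of all genes, and the median was 0.70. Ncf4, a cytosolic subunit of the oxidase, was the 1 called by edgeR, limma-voom called 1 and DESeq2 5 (8.7% of all genes). Ncf4 had 1.69, 2.62 and 2.40 CPM in the FAD5x libraries, against 0.385, 0.618 and 0.335 CPM in the Control libraries, a 4.95-fold rise (log2 2.31 ± 0.42 SE, edgeR adjusted p = 0.0271). FAD5x replicate 2 was the highest library for Ncf4. The call held without FAD5x replicate 2 (adjusted p = 0.0328) or 3 (0.0487) and ended without FAD5x replicate 1 (0.0564) or Control replicate 1 (0.13), 2 (0.0875) or 3 (0.103). The list had 5 calls without FAD5x replicate 2, when 989 of 17701 tested genes were called, against 537 of 17074 with all libraries.

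Of 19 inhibitory phosphatases and ITIM receptors, which act on the side of Fcgr2b, 17 were tested and 14 had a log2 fold change above 0, with a median of 0.34. EdgeR called 1, limma-voom 0 and DESeq2 3 (8.7% of all genes), and 4 were higher at an unadjusted p below 0.05 (11.2% of all genes). The called gene was Ptpn22, a tyrosine phosphatase that dephosphorylates Src family kinases in lymphocytes. It had 1.98, 2.47 and 1.88 CPM in the FAD5x libraries, against 0.771, 0.618 and 0.503 CPM in the Control libraries, a 3.32-fold rise (log2 1.73 ± 0.37 SE, edgeR adjusted p = 0.0457). The groups did not overlap, but the call ended when any single library was left out, with adjusted p-values of 0.0624 to 0.153.

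**Figure D4:**
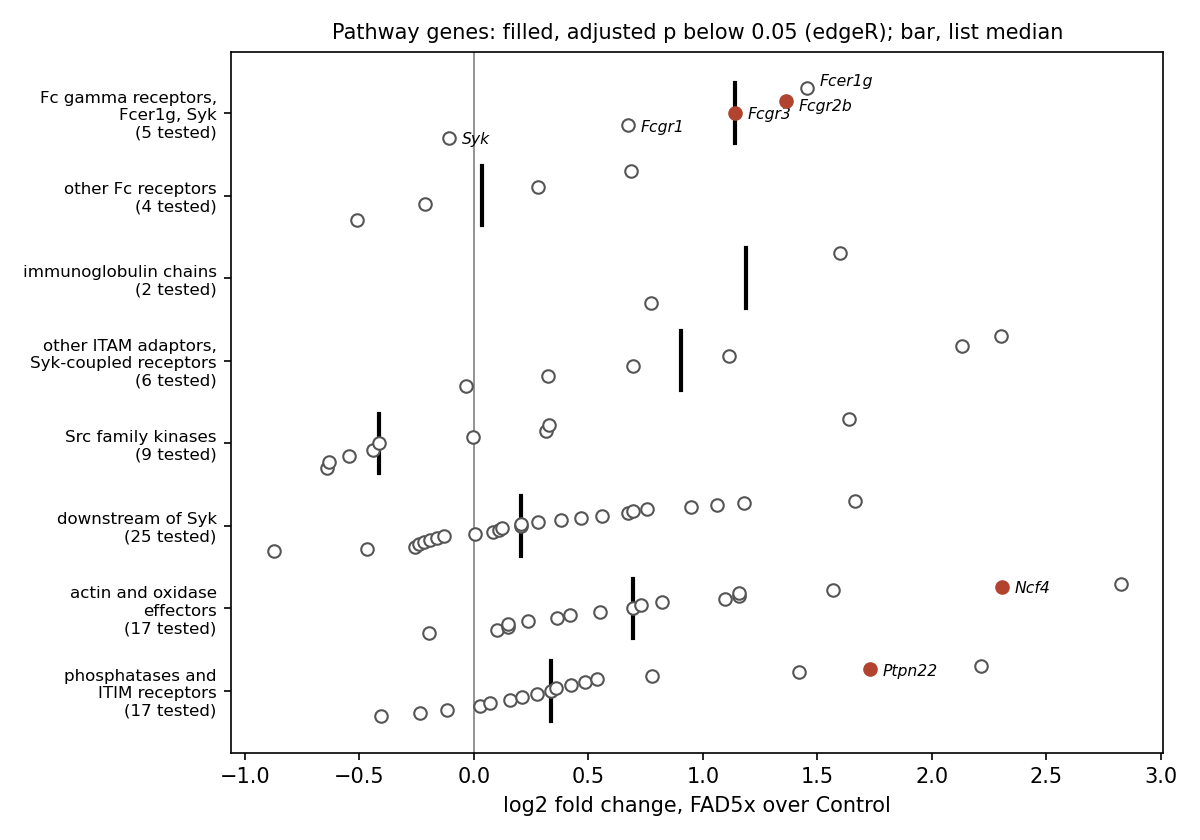
Log2 fold change of every tested gene of the Fc receptor set and of 7 related lists, FAD5x over Control, with 1 point per gene, filled points for genes called by edgeR and a bar at each list's median. The median is 1.14 for the Fc receptor set and 0.70 for the actin and oxidase genes, against 0.66 for the microglia markers, which are not drawn, and 0.02 over all tested genes.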

How the data were processed

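Cortex RNA of 3 FAD5x and 3 Control samples was sequenced, 1 library each. Per the submitters' processing notes, reads were processed with STAR 2.7.11b, cutadapt, featureCounts, limma and edgeR 3.38.4 on build GRCm39, in an order and with parameters not given. The authors deposited raw counts per gene. Of 47729 lines, 1 with a non-numeric cell was dropped. Libraries were matched to samples by library name. Symbols, exon lengths and transcripts came from a GENCODE annotation of GRCm38 (47223 identifiers matched, 505 not), promoter sequences from RefSeq.

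Counts were tested with edgeR 4.0.16 (quasi-likelihood F-test, robust; filterByExpr; trimmed mean of M values; two-sided; called below an adjusted p of 0.05 over 17074 genes) in R 4.3.3, with limma-voom 3.58.1 and DESeq2 1.42.0 as alternatives, after tests on simulated data. CPM used the normalisation factors, and log2 levels per library had 0.1 CPM added. The biological coefficient of variation was 23.3%. Ratios were tested by exact permutation. Named genes were the 6 members, the called genes of each list (at most 4) or the 2 most abundant, and the 8 most similar in pattern. Members and lists were chosen with earlier results of these data known. No pair of libraries differed by less than sampling noise. The interval of the Fcgr4 ratio covers counting error only, while SEs and p-values cover the spread between libraries.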

Additional observations from a re-analysis of the deposited data

How the results depend on the processing

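Of the 6 genes, 2 were called, against 1 with limma-voom, 1 with library totals as scaling, 0 with a replicate block, 3 with DESeq2 and 0 to 3 without single libraries. All genes called numbered 537, against 1485 with DESeq2, 1063 with no filter, 72 with the replicate block and 81 to 989 without single libraries. Deviations of same-numbered libraries from their group means had correlations of -0.04, -0.09 and -0.30. With means of only 3 libraries, these values cannot decide whether the replicate numbers pair the libraries. The numbers in the library names pair them otherwise, at 0.04 for FAD5x replicate 3 with Control replicate 2 and -0.21 for FAD5x replicate 2 with Control replicate 1. With the block the log2 fold change was 1.35 for Fcgr2b (adjusted p = 0.105) and 1.17 for Fcgr3 (0.0801). For Fcgr2b it was 1.36 with limma-voom and 1.35 with library totals, not called in either, and 1.16 to 1.54 without single libraries. For Fcgr3 that range was 0.97 to 1.37, and for Fcer1g 1.12 to 1.83, with 1.45 and a call in DESeq2. With FAD5x replicates 1 and 2 summed as 1 sample, an alternative added after the data were seen, 715 genes and 3 of the 6 were called, with Fcer1g at 1.46, and calls per list were 1 for immunoglobulin chains, 3 for ITAM adaptors, 1 for Src family kinases and 4 for actin and oxidase genes.

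Syk ranged from -0.27 to 0.021 without single libraries, and was above 0 without FAD5x replicate 2 or Control replicate 1. Src turned to 0.018 with upper quartile factors and 0.0055 with no filter, and ranged from -0.16 to 0.081 without single libraries. Trim21 ranged from -0.025 to 0.52 and Grb2 from -0.048 to 0.26. The median of the other Fc receptors was below 0 with limma-voom (-0.06), with no filter (-0.21) and without FAD5x replicate 1 (-0.01).

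Calls per list moved in DESeq2 to 1 for immunoglobulin chains, 2 for ITAM adaptors, 2 for Src family kinases, 3 downstream of Syk, 5 for actin and oxidase genes and 3 for phosphatases and ITIM receptors. With no filter they were 1, 2, 2, 3 and 3, with ITAM adaptors at 0. The call among the phosphatases was lost (0) with limma-voom and library totals, and with the block, which also left 0 actin and oxidase calls. Without single libraries they were 0 to 2 for immunoglobulin chains, 0 to 4 for ITAM adaptors, 0 to 1 for Src family kinases, 0 to 1 downstream of Syk, 0 to 5 for actin and oxidase genes and 0 to 2 for phosphatases. All 8 ratios within libraries kept their direction under every alternative, and 3 against 3 libraries cannot pass 0.05 there. Causes were not tested.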
